A study of Mus musculus with 6 samples.

Results

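The small proline-rich (Sprr) genes encode short structural proteins that keratinocytes make late in their differentiation. Transglutaminases cross-link these proteins to involucrin, loricrin and other partners on the inside of the plasma membrane, which builds the cornified envelope, the tough shell of the dead surface cells of skin, tongue and oesophagus. In mice the family forms 1 cluster in the epidermal differentiation complex, and its transcripts are known to rise when stratified epithelium is wounded, inflamed or stressed. The 10 members described here are Sprr1a, Sprr1b, Sprr3, Sprr2b, Sprr2d, Sprr2e, Sprr2f, Sprr2g, Sprr2h and Sprr2k, chosen by symbol from the 24067 rows of the gene table. They are 10 of the 15 rows with an Sprr symbol, and all 10 passed the filter on low counts.

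The libraries came from whole tongues with tumours of C57BL/6 mice about 34 weeks old, with 3 libraries under the label WT (wild type for HuR) and 3 under the label KO (knocked out). HuR is an RNA-binding protein that acts on the stability and translation of many transcripts, and its gene is Elavl1. All the mice, WT included, had been given 4-nitroquinoline 1-oxide (4NQO), a carcinogen used to raise oral tumours, for 16 weeks and were kept a further 12 weeks, so no library came from an untreated tongue. The sources used here give neither the allele nor the promoter of any Cre driver nor the cells that lack HuR. They do not state how the replicates of a group arose. A p-value here thus weighs the difference between the labels only against the spread among these samples. That spread may be technical in part. By the sex markers given below, KO replicate 1 came from another animal than KO replicates 2 and 3.

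Total counts ran from 29543352 to 51520707 per library, and 15903 genes were tested. Levels are given as CPM, read counts scaled to the library's size. For Elavl1 the KO libraries gave 65.0, 59.3 and 78.4 CPM, and the WT libraries 61.7, 55.8 and 48.0 CPM. Its level was thus no lower in the libraries labelled KO (log2 fold change 0.29 ± 0.15 SE, adjusted p = 0.1798 from edgeR with Benjamini-Hochberg adjustment over all genes), so the groups are named below by their labels. KO replicates 2 and 3 carried Xist (1271 and 1104 CPM), and the other 4 libraries carried the Y-linked Ddx3y (82.5 to 96.4 CPM), so the sexes were not balanced between the labels. Summed fast muscle transcripts ran from 39968 to 57314 CPM in the KO libraries and from 71047 to 132140 CPM in the WT libraries. In whole tongue, fewer cells of a type and less RNA per cell cannot be told apart.

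All 10 members lie on chromosome 3 within 1 stretch of the GRCm38 genome, and each has 2 exons. The Sprr2 members run along the forward strand from Sprr2b (chr3:92316705-92318085) through Sprr2d (chr3:92339140-92340873), Sprr2e (chr3:92352143-92353449), Sprr2f (chr3:92365187-92366442), Sprr2g (chr3:92373915-92375229) and Sprr2h (chr3:92385685-92387324) to Sprr2k (chr3:92432582-92433927). On the reverse strand follow Sprr1b (chr3:92436808-92438817), Sprr3 (chr3:92456502-92458720) and Sprr1a (chr3:92483954-92485881). RefSeq annotates 9 of them as protein coding and Sprr2g as a transcribed pseudogene, and no annotated gene overlaps any of them.

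The coding sequences show why the family carries its name and how alike its copies are. A unit of 6 codons, read as proline, an acidic residue, proline, a codon that opens with TG, proline and proline, was searched on the coding strand. It occurred 5 times in Sprr2h, 4 in Sprr2d, 3 in Sprr2b, 2 each in Sprr2e and Sprr2f and 1 in Sprr2k, and in none of Sprr1a, Sprr1b, Sprr3 and Sprr2g, whose annotated coding run of 232 bases is no whole number of codons. Proline codons made up 42.2% of the codons of Sprr2h, 40.7% of those of Sprr2d, 31.7% of those of Sprr1a and 20.5% of those of Sprr3. Sprr2d and Sprr2e are shown because they are close copies with different levels (353 and 47.1 CPM per kilobase of transcript in the mean of the KO libraries), and the capitals mark where each departs from the other. The Sprr2d run is 258 bases (chr3:92340254-92340511, forward strand) and that of Sprr2e 231 bases (chr3:92352864-92353094, forward strand), both from the GENCODE M21 annotation of GRCm38. They were identical at 84.9% of 258 aligned positions, with 12 mismatches and a gap of 27 positions.
Sprr2d: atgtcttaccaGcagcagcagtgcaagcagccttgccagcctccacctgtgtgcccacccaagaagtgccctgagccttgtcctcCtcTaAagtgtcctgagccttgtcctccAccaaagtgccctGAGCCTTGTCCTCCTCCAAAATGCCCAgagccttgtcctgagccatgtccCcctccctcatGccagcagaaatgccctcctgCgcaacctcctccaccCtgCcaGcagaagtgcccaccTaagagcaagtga
Sprr2e: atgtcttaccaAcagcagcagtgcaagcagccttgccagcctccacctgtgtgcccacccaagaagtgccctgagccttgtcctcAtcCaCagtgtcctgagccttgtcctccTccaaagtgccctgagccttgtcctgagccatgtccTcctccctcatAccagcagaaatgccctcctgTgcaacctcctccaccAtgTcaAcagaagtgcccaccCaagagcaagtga

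Because copies this close could share reads, every 50-base stretch of each transcript was looked up in the transcripts of all other annotated genes. The search was for exact matches on both strands. In Sprr1a, Sprr1b, Sprr3, Sprr2g, Sprr2h and Sprr2k every stretch was unique to the gene. The share that was unique was 99.3% in Sprr2f, 95.7% in Sprr2d, 89.8% in Sprr2e and 86.3% in Sprr2b. Exact 50-base matches to other genes thus took a small part of these 4. Inexact matches were not looked up, and the read length and aligner are not known. How many reads are uncertain was therefore not measured. Sprr2a1 and Sprr2a2, which are no members, were unique in 3.72% and 3.55% of their stretches, and both were listed at 0 counts in all 6 libraries, where reads that match several genes may not have been counted.

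The 200 bases upstream of the start are shown for 5 members, to set 2 related Sprr2 promoters beside those of Sprr1a, Sprr1b and Sprr3. Capitals mark letters that match the AP-1 site TGANTCA or the octamer ATGCAAAT on either strand. The sequences are RefSeq's for GRCm38.p6, 5′ to 3′ in the direction of transcription: Sprr2d chr3:92338940-92339139 and Sprr2k chr3:92432382-92432581 on the forward strand, and Sprr1a chr3:92485882-92486081, Sprr1b chr3:92438780-92438979 and Sprr3 chr3:92458721-92458920 on the reverse strand. The start that the promoter table gives for Sprr1b lies inside the gene span printed above, so the near end of its window overlaps that span.
Sprr2d: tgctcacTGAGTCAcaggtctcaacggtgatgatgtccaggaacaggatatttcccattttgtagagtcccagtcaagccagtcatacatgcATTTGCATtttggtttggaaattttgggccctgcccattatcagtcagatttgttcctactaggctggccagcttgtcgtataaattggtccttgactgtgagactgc
Sprr2k: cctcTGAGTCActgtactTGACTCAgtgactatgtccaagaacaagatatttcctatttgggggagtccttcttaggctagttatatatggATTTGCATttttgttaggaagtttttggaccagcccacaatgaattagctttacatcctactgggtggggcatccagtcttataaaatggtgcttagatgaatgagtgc
Sprr1a: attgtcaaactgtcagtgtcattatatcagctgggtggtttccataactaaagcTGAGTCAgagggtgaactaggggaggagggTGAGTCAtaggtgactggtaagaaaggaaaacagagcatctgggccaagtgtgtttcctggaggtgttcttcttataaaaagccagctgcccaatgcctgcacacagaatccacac
Sprr1b: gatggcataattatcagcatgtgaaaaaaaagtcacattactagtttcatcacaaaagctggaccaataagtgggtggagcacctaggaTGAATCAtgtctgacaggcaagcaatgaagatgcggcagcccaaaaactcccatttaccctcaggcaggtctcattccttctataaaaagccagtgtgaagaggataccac
Sprr3: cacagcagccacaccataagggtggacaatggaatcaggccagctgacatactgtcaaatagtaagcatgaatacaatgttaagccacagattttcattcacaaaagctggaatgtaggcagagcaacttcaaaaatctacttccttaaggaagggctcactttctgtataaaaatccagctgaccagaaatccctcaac

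Windows of 300 bases around the start were at hand for 9 members, all but Sprr2g. AP-1, the dimer of Fos and Jun proteins, had matching letters in 8 of the 9 windows, all but that of Sprr3, against 7.81% of 32851 windows of the mouse genome. The octamer, a binding site of POU factors, had a match in 6 of the 9, all of them Sprr2 genes, against 1.74% of all windows. In the Sprr2 windows the AP-1 letters began 193 to 198 bases before the start and the octamer 108 to 112 bases before it, with a second AP-1 match at -182 in Sprr2k. In Sprr1a AP-1 matches began at -146 and -116 and in Sprr1b at -111. The ETS letters AGGAAG occurred in 3 windows (Sprr2f, Sprr2k and Sprr3, against 35.4% of all) and the Klf letters GGGNGGGG in 2 (Sprr2h and Sprr2k, against 33.2%). The interferon response motif occurred in none of the 9, against 3.44% of all. A match is a description of the letters alone.

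Every one of the 10 members was higher in each library labelled KO than in each library labelled WT, an order that 22.0% of all tested genes showed. After adjustment over all genes 9 of the 10 rose in the KO libraries (edgeR with Benjamini-Hochberg adjustment, threshold 0.05), where 4.81% of tested genes were called higher and 7.43% lower. Sprr2d, at an adjusted p of 0.06552, was not called. The members' median log2 fold change was 3.52, beside 0.02 over all genes tested, and 9 of the 10, all but Sprr3, were among the 100 largest. The members differed in how tightly their replicates agreed, and the account below takes them by subfamily.

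**Figure D1:**
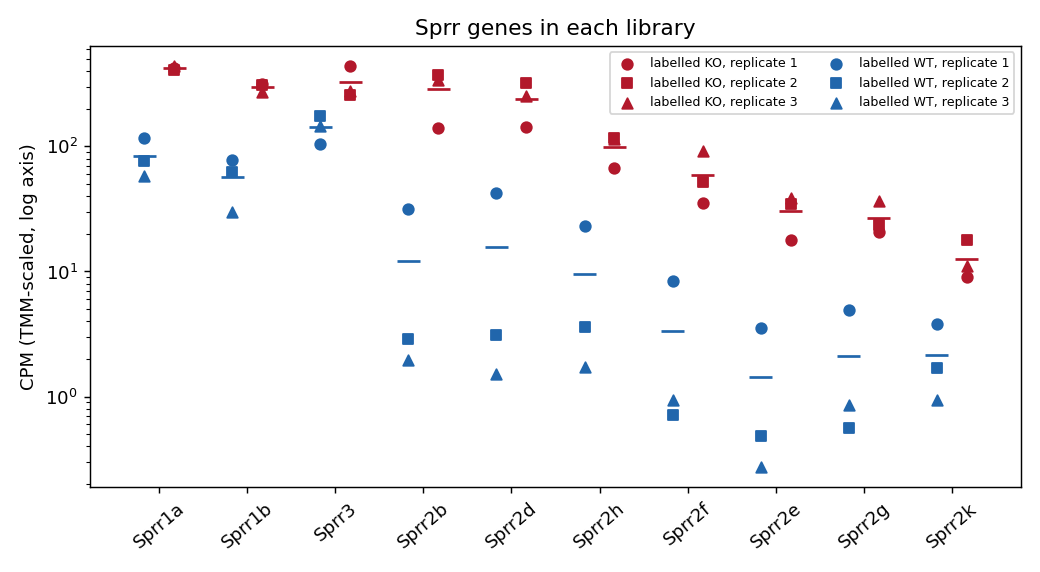
CPM of each of the 10 Sprr genes (log axis) in the 3 libraries labelled WT (blue) and the 3 labelled KO (red), with horizontal bars for group means and a marker shape for each replicate. For every gene the red points lie above the blue, and in the Sprr2 genes WT replicate 1 stands well above the other 2 WT libraries.

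Sprr1a, which encodes an envelope precursor and is also known from injured nerve, gave 425, 412 and 439 CPM in KO replicates 1 to 3 and 117, 76.2 and 57.8 CPM in WT replicates 1 to 3. The KO libraries lay within 1.07-fold of each other, and the lowest of them was 3.52 times the highest WT library. The group means were 425 ± 13.6 and 83.6 ± 30.2 CPM (SD, n = 3 each), a log2 fold change of 2.35 ± 0.26 (SE, 95% interval 1.75 to 2.94, adjusted p = 0.02951, edgeR).

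Sprr1b, its closest relative, encodes a cross-linked envelope precursor of squamous cells. It gave 315, 309 and 270 CPM in the KO libraries and 78.2, 62.2 and 30.1 CPM in the WT libraries. The groups did not overlap, and WT replicate 3 was the lowest for both Sprr1 genes. The log2 fold change was 2.39 ± 0.32 (SE, 95% interval 1.65 to 3.13, adjusted p = 0.02951, edgeR). The count ratio of Sprr1b to Sprr1a was 0.702 ± 0.0751 in the KO libraries and 0.668 ± 0.148 in the WT libraries (SD, n = 3 each), a difference within the spread (exact permutation test, 2-sided, p = 0.7).

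Sprr3, also called esophagin and known from the lining of mouth and oesophagus, had the smallest change. The KO libraries gave 440, 260 and 280 CPM in replicates 1 to 3, and the WT libraries 105, 175 and 145.5 CPM. Here KO replicate 1 was the highest and WT replicate 1 the lowest library, and the lowest KO library was 1.48 times the highest WT library. The means were 327 ± 98.7 and 142 ± 35.2 CPM (SD, n = 3 each), and the log2 fold change was 1.20 ± 0.26 (SE, 95% interval 0.60 to 1.81, adjusted p = 0.03658, edgeR).

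The Sprr2 genes encode short proteins, which act as cross-bridges between other envelope proteins. Sprr2b, the first of the run, gave 141, 375 and 341 CPM in KO replicates 1 to 3 and 31.7, 2.88 and 1.95 CPM in WT replicates 1 to 3. WT replicates 2 and 3 held 138 and 50 counts of Sprr2b, while WT replicate 1 held 1107. Thus the WT libraries spread 16.2-fold, more than the KO libraries (2.67-fold), and still did not reach the lowest KO library. The log2 fold change was 4.55 ± 1.06 (SE, 95% interval 2.09 to 7.0, adjusted p = 0.04036, edgeR).

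Sprr2d had 143, 324 and 255 CPM in KO replicates 1 to 3 and 42.1, 3.09 and 1.52 CPM in WT replicates 1 to 3. It had the widest spread of any member among the WT libraries, 27.6-fold, and the KO libraries lay above all 3. Its log2 fold change of 3.95 ± 1.19 (SE, 95% interval 1.14 to 6.75) missed the threshold in edgeR (adjusted p = 0.06552) and passed it in DESeq2 (adjusted p = 0.01113) and limma-voom (adjusted p = 0.0315).

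Sprr2e, the close copy shown above, gave 17.8, 34.9 and 38.7 CPM in the KO libraries and 3.55, 0.480 and 0.274 CPM in the WT libraries. The 2 lowest WT values rest on 23 and 7 counts, and Sprr2e was the 1 member that would not have passed the low-count filter on its WT libraries alone. Its log2 fold change was 4.39 ± 0.80 (SE, 95% interval 2.54 to 6.25, adjusted p = 0.03245, edgeR).

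Sprr2f, known as an oestrogen-responsive member in the uterus, gave 35.0, 51.8 and 91.8 CPM in the KO libraries and 8.37, 0.709 and 0.938 CPM in the WT libraries. Sprr2g, the transcribed pseudogene, gave 20.5, 23.3 and 36.8 CPM against 4.93, 0.563 and 0.860 CPM. In both, KO replicate 3 was the highest library and the groups did not overlap. The log2 fold change was 4.15 ± 0.90 for Sprr2f (adjusted p = 0.03643) and 3.67 ± 0.73 for Sprr2g (adjusted p = 0.03367, SE, edgeR).

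Sprr2h, the member with the most repeats, gave 67.4, 117 and 114 CPM in the KO libraries and 23.3, 3.59 and 1.72 CPM in the WT libraries. Sprr2k, the last of the run and the lowest in level in the KO libraries, gave 8.98, 17.8 and 11 CPM against 3.78, 1.69 and 0.938 CPM. KO replicate 1 was the lowest KO library for both genes and WT replicate 1 the highest WT library. The log2 fold change was 3.38 ± 0.85 for Sprr2h (adjusted p = 0.04457) and 2.54 ± 0.48 for Sprr2k (adjusted p = 0.03245, SE, edgeR).

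Of the 5 other Sprr rows, Sprr2i stood at 213 ± 46.0 and 19.3 ± 24.2 CPM in the KO and WT libraries (SD, n = 3 each; log2 fold change 3.46 ± 0.94 SE, adjusted p = 0.05059, edgeR, not called). The pseudogene Sprr2j-ps rose by 2.93 ± 0.64 on the log2 scale (adjusted p = 0.03686, edgeR), with no overlap of the groups. Sprr4 had 0 to 5 counts per library and was not tested, as were Sprr2a1 and Sprr2a2 at 0.

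Per kilobase of transcript, a scale on which genes can be set beside each other, the order of levels differed between the labels. In the KO libraries the means were 527 CPM per kb for Sprr1a, 364.5 for Sprr2b, 359 for Sprr1b, 353 for Sprr2d and 267 for Sprr3, and the 5 others ran from 132 for Sprr2h down to 19.8 for Sprr2k. In the WT libraries Sprr3 led with 116 CPM per kb, ahead of Sprr1a with 104 and Sprr1b with 68.5, and no Sprr2 gene exceeded the 22.9 of Sprr2d. In the KO libraries the ranges of Sprr2b, Sprr1b, Sprr2d and Sprr3 overlapped, as did those of Sprr2h with Sprr2f and of Sprr2e with Sprr2g. The same held in the WT libraries for Sprr3 with Sprr1a and for each Sprr2 gene with the next. Taken within each library, Sprr2h was above Sprr2f in every library. Sprr1b was above Sprr3 in every KO library, and Sprr2g above Sprr2e in every WT library.

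The 10 members summed to 1613, 1924 and 1877 CPM in KO replicates 1 to 3 and to 418, 327 and 242 CPM in WT replicates 1 to 3. The mean was 5.49 times higher under the KO label (1805 ± 168 against 329 ± 88.2 CPM, SD, n = 3 each). The exact permutation test of this sum gave p = 0.1, the smallest that 3 against 3 libraries allow (2-sided; 0.1778 after Benjamini-Hochberg adjustment over 16 sums and ratios). The 7 Sprr2 members summed to 434, 944.0 and 888 CPM in the KO libraries and to 118, 13 and 8.21 CPM in the WT libraries, 16.3 times higher in the mean, also with p = 0.1 (exact permutation test).

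**Figure D2:**
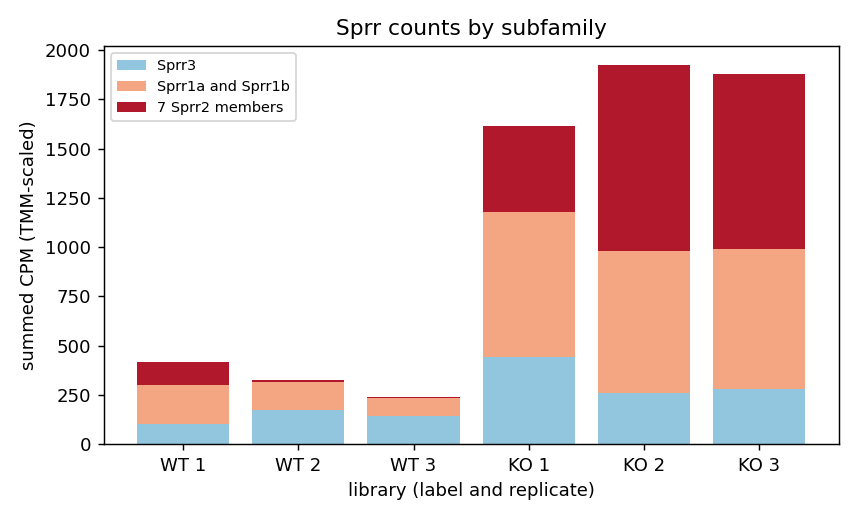
Summed CPM of Sprr3, of Sprr1a with Sprr1b, and of the 7 Sprr2 members as stacked bars from 0, 1 bar per library. The KO bars reach 1613 to 1924 CPM and the WT bars 242 to 418 CPM, and the Sprr2 part is hard to see in WT replicates 2 and 3.

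The make-up of the family's counts overlapped between the labels. Sprr2 genes took 26.9, 49.1 and 47.3% of the Sprr counts in KO replicates 1 to 3 and 28.2, 3.98 and 3.40% in WT replicates 1 to 3. Thus KO replicate 1 and WT replicate 1 had nearly the same share, and the groups overlapped (exact permutation test, 2-sided, p = 0.2). The same 2 libraries brought the groups to overlap in the count ratio of Sprr2 to Sprr3, which was 0.986, 3.63 and 3.17 in the KO libraries and 1.12, 0.0741 and 0.0564 in the WT libraries (p = 0.2, exact permutation test).

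Within the Sprr2 counts, Sprr2b took 36.9% in the mean of the KO libraries and 24.3% in that of the WT libraries, and Sprr2d 32.0 and 26.0%. Sprr2k took 1.73% under the KO label and 9.21% under the WT label, where WT replicate 1 (3.21%) was closer to the KO libraries than WT replicates 2 (13%) and 3 (11.4%). These shares were not tested.

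WT replicate 1 stood apart from the other WT libraries in the Sprr2 genes. Its level was 18.3 times the mean of the other 2 WT libraries for Sprr2d, 13.1 times for Sprr2b and 2.88 times for Sprr2k, but 1.74 times for Sprr1a and 0.655 times for Sprr3. The mean of the KO libraries was 9.01 times WT replicate 1 and 146 times WT replicate 3 for Sprr2b. Without WT replicate 1 all 10 members, Sprr2d included, were called higher (17.9% of genes were), and their median log2 fold change was 5.25. The fold change was then 6.87 for Sprr2b and 6.67 for Sprr2d, while that of Sprr3 was 1.04 (adjusted p = 0.01655, edgeR).

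The calls depended on which library was left out. Without KO replicate 1, KO replicate 2 or WT replicate 2 no member was called (0.0251%, 0.00% and 0.00% of genes were), without KO replicate 3 only Sprr1a (0.306%) and without WT replicate 3 only Sprr1a, Sprr1b and Sprr2k (1.81%). In these edgeR fits the unadjusted p was under 0.05 for all 10 members, except for Sprr2d without WT replicate 3, and the members' median log2 fold change ran from 3.08 to 3.71. In KO replicate 1, the 1 KO library that carried Ddx3y as the WT libraries did, each member stood above all 3 WT libraries. Its Sprr2 sum was the lowest of the KO libraries (434 against 944.0 and 888 CPM). Its sum of Sprr1a and Sprr1b (739 against 720 and 709 CPM) and its Sprr3 level (440 against 260 and 280 CPM) were the highest. As 1 library cannot separate sex from label, the part of sex in the differences was not tested.

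**Figure D3:**
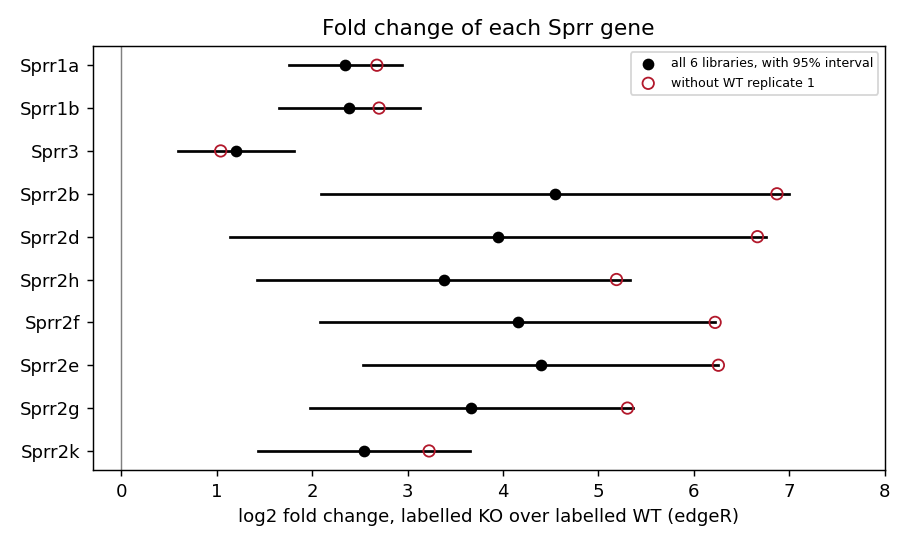
Log2 fold change of each Sprr gene, KO over WT, with its 95% interval (black, all 6 libraries) and the value without WT replicate 1 (red circles). Intervals of the Sprr2 genes are wide, and leaving out WT replicate 1 raised 9 of the 10 values and lowered that of Sprr3 from 1.20 to 1.04.

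Over the 6 libraries the Sprr2 genes followed each other closely, with Pearson's r of log2 CPM of 0.999 for Sprr2b with Sprr2e and for Sprr2d with Sprr2h. Sprr3 was the least alike, with r of 0.599 to 0.806 with the other members. Once each library was set against the mean of its own group, r was 0.887 for Sprr1a with Sprr1b and negative for Sprr3 with all 9 others, from -0.192 with Sprr1b to -0.808 with Sprr2b. These are descriptions over 6 libraries that share depth and tissue make-up.

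Along the chromosome the log2 fold change was 4.55 in Sprr2b at one end of the run and 2.54 in Sprr2k, 2.39 in Sprr1b, 1.20 in Sprr3 and 2.35 in Sprr1a towards the other, and was not smaller at every step. Spearman's rho of gene start with log2 fold change was -0.965 over the 12 Sprr rows tested and -0.933 over the 9 of these that are Sprr2 rows. Without WT replicate 1 they were -0.986 and -0.983. The values are given as a description, since the genes share libraries, neighbouring genes are close copies, and the intervals of adjacent Sprr2 genes overlap.

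The genes around the cluster had smaller fold changes than every member but Sprr3. Of 27 other genes in the table within 500 kb of the outermost members, 24 were tested, 18 rose and none fell in edgeR at an adjusted p of 0.05, against 4.81% of all genes called higher. Their log2 fold changes ran from 0.47 to 1.88 with a median of 1.09, and none of these genes lies between members. Most are late cornified envelope (Lce) genes, which encode further envelope proteins: 16 of 18 tested rose, among them Lce3d by 1.88 ± 0.30 (SE, adjusted p = 0.02951), Lce3b by 1.24 ± 0.11 (adjusted p = 0.02608) and Lce1a1 by 1.09 ± 0.21 (adjusted p = 0.03245). On the side of Sprr1a 18 of 21 tested genes rose, and on the side of Sprr2b 0 of 3. The nearest tested genes were Ivl, which encodes involucrin, beyond Sprr1a (1.10 ± 0.59, adjusted p = 0.2001) and Prr9 beyond Sprr2b (0.76 ± 0.49, adjusted p = 0.2805). Loricrin (Lor), the main envelope protein of skin, stood at 0.47 ± 0.23 (adjusted p = 0.1697).

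**Figure D4:**
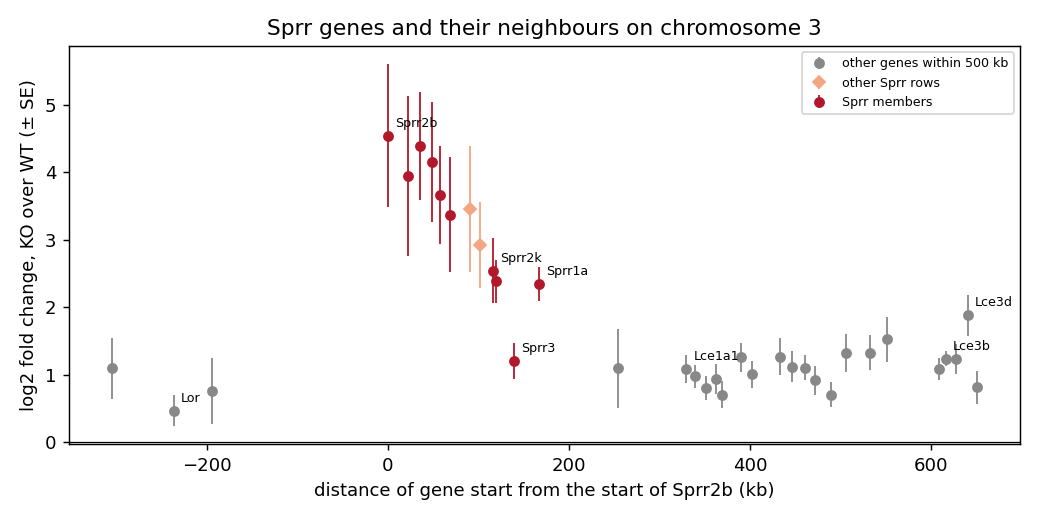
Log2 fold change (± SE, edgeR) of the Sprr members (red), the other tested Sprr rows (orange) and the other tested genes within 500 kb (grey) by distance of the gene start from that of Sprr2b. The Sprr2 genes run from 4.55 at Sprr2b to 2.54 at Sprr2k, not in even steps (Sprr2d is at 3.95 and Sprr2e, next to it, at 4.39), and the grey genes lie between 0.47 and 1.88.

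Envelope genes outside the family rose in part. Of 38 tested genes of the cornified envelope, many of them the Lce genes above, 26 rose and none fell, with a median log2 fold change of 1.10. The shares over all tested genes were 4.81% called higher and 7.43% called lower. Ivl and Lor, which encode the partners involucrin and loricrin, were among those not called. Csta1, a cystatin of the envelope, rose from 20.4 ± 7.88 to 102 ± 29.0 CPM (SD, n = 3 each; 2.31 ± 0.32 SE, adjusted p = 0.02951, edgeR). Cnfn, or cornifelin, rose by 0.99 ± 0.14 on the log2 scale (adjusted p = 0.02951, edgeR). Of the 6 transglutaminases 2 rose and 1 fell. Tgm1, the membrane-bound enzyme of keratinocytes, rose from 137 ± 56.8 to 384 ± 10.9 CPM (1.49 ± 0.28 SE, adjusted p = 0.03245, edgeR), and Tgm5 by 1.34 ± 0.31. Tgm2, the widely expressed tissue form, fell by 0.96 ± 0.23 (adjusted p = 0.04036, edgeR). Tgm3, which is known to join Sprr proteins into short oligomers, stood at 1533 ± 432 and 697 ± 268 CPM and was not called (adjusted p = 0.0668, edgeR).

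Of 31 known regulators of Sprr genes or late keratinocyte differentiation, nearly all transcription factors, 9 rose and none fell, with a median of 0.47. Over all tested genes 4.81% were called higher. Grhl3, a grainyhead factor of barrier formation, rose by 1.09 ± 0.14 (SE, adjusted p = 0.02951, edgeR), Ovol1, a zinc finger factor that limits proliferation, by 1.34 ± 0.20 and Klf4, a factor of the barrier, by 1.01 ± 0.21 on the log2 scale. The ETS factors Elf3 and Ehf rose by 1.12 ± 0.24 and 1.24 ± 0.31, and Prdm1, Zfp750 and Grhl1 rose as well, by 0.96 to 1.16. AP-1 genes were not called: Fosl1 was at 1.73 ± 0.75 (adjusted p = 0.1298), Fosl2 at 0.76 ± 0.21 (adjusted p = 0.053) and Fos at 0.29 ± 0.29 (adjusted p = 0.4818, edgeR). The POU factor gene Pou2f3 was at 0.90 ± 0.38 (adjusted p = 0.1235, edgeR).

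Of 20 ligands known to raise Sprr transcripts or keratinocyte activation, 17 were tested, 5 rose and none fell, with a median of 1.60. The share of all tested genes called higher was 4.81%. Of the interleukin-36 genes, Il1f6 and Il1f8 rose by 2.87 ± 0.50 and 1.96 ± 0.34 (SE, adjusted p = 0.03202 for both, edgeR). A further one, Il1f9, was at 1.56 ± 0.63 and was not called (adjusted p = 0.1124, edgeR). Il1f6 stood at 105, 130 and 108 CPM in the KO libraries and 27.2, 14.2 and 5.20 CPM in the WT libraries. Il1a rose by 2.02 ± 0.44, and the EGF receptor ligands Tgfa and Hbegf by 1.12 ± 0.24 and 1.31 ± 0.31. Areg, Ereg and Epgn, of the same ligand family, were not called (adjusted p = 0.1757, 0.08698 and 0.07533, edgeR). Il22, Il13 and Il4 were too low to test.

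Keratin counts of the same libraries were set beside the Sprr counts. Krt5 and Krt14, the keratins of the basal layer, summed to 10261 ± 1046 CPM in the KO libraries and 5441 ± 2462 CPM in the WT libraries (SD, n = 3 each), 1.89 times as much (exact permutation test, 2-sided, p = 0.1). Neither gene was called alone (adjusted p = 0.1811 for Krt5, whose groups overlapped, and 0.06511 for Krt14, edgeR). Per Krt5 and Krt14 count the 10 members gave 0.178, 0.175 and 0.175 in the KO libraries and 0.0509, 0.0710 and 0.0688 in the WT libraries. The groups stood apart on this scale, 2.77-fold in the mean (exact permutation test, 2-sided, p = 0.1). By the same measure Sprr2 was 11.1 times and Sprr1 2.70 times higher under the KO label (p = 0.1 each, exact permutation test). Sprr3 was 1.07 times as high, with WT replicates 2 and 3 above KO replicates 2 and 3 (p = 0.8, exact permutation test). Per count of Krt4 and Krt13, the keratins of the layers above in mouth lining, the 10 members were 3.92 times higher (0.0819 ± 0.0243 against 0.0209 ± 0.00657, p = 0.1, exact permutation test).

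**Figure D5:**
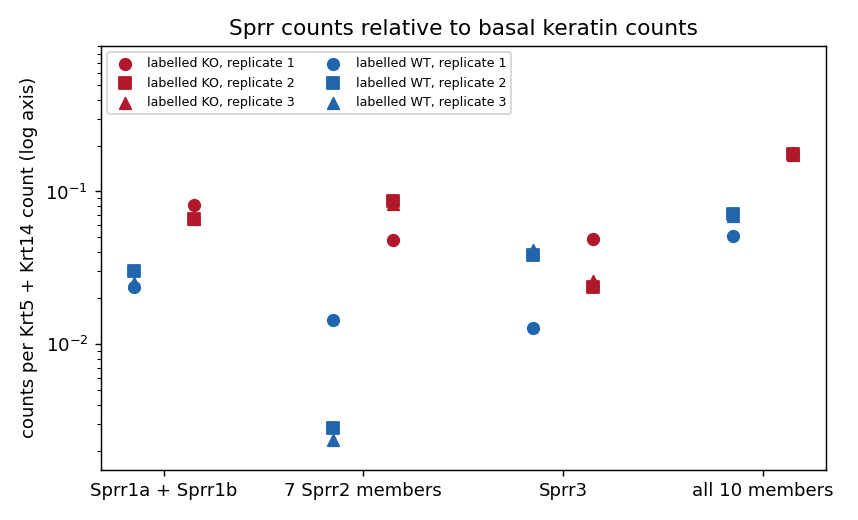
Counts of Sprr1a with Sprr1b, of the 7 Sprr2 members, of Sprr3 and of all 10 members per Krt5 and Krt14 count of the same library (log axis), with WT in blue, KO in red and a marker shape for each replicate. The groups stand apart for Sprr1, Sprr2 and the sum, where the 3 KO points coincide at 0.175 to 0.178, and overlap for Sprr3.

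Most markers of the layers were not called. The calls are given below by list, and of all tested genes 4.81% were called higher. The markers' median log2 fold change was 0.62 for basal, 1.37 for suprabasal, 1.65 for cornifying markers and 1.18 for hard keratins. All KO libraries stood above all WT libraries for 4, 7, 3 and 2 of these genes, against 22.0% of all genes. For 1 basal marker the KO libraries all stood below. Over 9 basal markers none was called and the sums ran from 13859 to 15472 CPM in the KO libraries and from 7546 to 12952 CPM in the WT libraries, with the highest WT sum in replicate 1. Of 9 suprabasal markers 1 rose (Dsc2), with sums of 34221 to 44540 CPM against 15551 to 24884 CPM. Of 7 cornifying markers 2 rose (Krt10 and Dsc1), and of 7 hard keratins of the filiform papillae none was called. Of 14 fast muscle genes none rose and 2 fell, with a median log2 fold change of -0.89, where 7.43% of all tested genes were called lower.

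The neutrophil markers, 7 genes in the table, summed to 578, 1874 and 1033 CPM in KO replicates 1 to 3 and to 342, 36.1 and 12.6 CPM in WT replicates 1 to 3, with Elane at 0. This sum ranked the 6 libraries as the Sprr2 sum did. Most of it was S100a8 and S100a9, which keratinocytes also express and which were not called. Of the 4 tested 2 rose, the receptor genes Cxcr2 and Csf3r, where 4.81% of all tested genes were called higher. For all 4, every KO library stood above every WT library, against 22.0% of all genes. Cxcr2 stood at 3.05, 2.75 and 3.62 CPM in the KO libraries and at 1.23, 1.06 and 0.508 CPM in the WT libraries. Csf3r stood at 10.7, 9.07 and 11.6 CPM against 6.59, 3.09 and 3.28 CPM. In both, KO replicate 2 was the lowest KO library and WT replicate 1 the highest WT library. Of the other lists, mast cells had 2 of 8 tested genes higher, Mcpt1 and Mcpt2, with a list median log2 fold change of 0.13. Fibroblasts had 2 of 7 and Schwann cells 1 of 6 lower, where 7.43% of all tested genes were called lower. Macrophages (5 tested) and salivary glands (4 tested, Dcpp1 and Prol1 at 0) had none called. With the mean of the basal list, or of the muscle list, as a covariate, no member and no other gene was called higher (0.00% of genes in both, edgeR). The members' median log2 fold change was then 1.99 and 2.34, and 10 and 6 members had an unadjusted p under 0.05. The part of tissue make-up in the Sprr differences was not tested beyond these values.

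Outside the family, the 10 genes whose log2 CPM most resembled the members' mean pattern over the 6 libraries had r of 0.996 to 0.998. They were Trpv3, a heat-gated channel of keratinocytes, Plekhg4, Slfn10-ps, S100a14 and S100a16, calcium-binding proteins of epithelia, Nppb, Hip1r, Pwwp2a, March9 and Ccdc116. Trpv3 stood at 17, 19.3 and 18.9 CPM in the KO libraries and at 9.98, 6.05 and 5.39 CPM in the WT libraries. Nppb, which encodes a natriuretic peptide, had the widest range of the 10, with 4.95, 7.14 and 5.64 CPM against 0.745, 0.271 and 0.156 CPM. They were ranked on this likeness among all genes with a mean of at least 1 CPM, so r is a description.

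The authors' deposited table of the 6 libraries gives the change as group B over group A, which is WT over KO, from DESeq2. In the authors' deposited table Sprr1a is at -2.14 on the log2 scale (adjusted p = 4.526e-17), Sprr3 at -1.08 (adjusted p = 0.0002597), Sprr2b at -1.13 (adjusted p = 0.01869) and Sprr2d at -0.98 (adjusted p = 0.04018). There the Sprr2 changes are smaller than that of Sprr1a, the reverse of the order both in edgeR and in DESeq2 without shrinkage run on the same counts (4.55 for Sprr2b, 3.95 for Sprr2d and 2.34 for Sprr1a, KO over WT). The authors' deposited table with KO replicates 1 and 2 and WT replicates 1 and 3 has Sprr2b at -0.74 (adjusted p = 0.225) and Sprr2d at -0.59 (adjusted p = 0.3335), and Sprr2e, Sprr2f and Sprr2h also miss the threshold of 0.05. In the same authors' deposited table Sprr2g at -2.01 (adjusted p = 0.0001997), Sprr2k at -1.75 (adjusted p = 0.001797), Sprr1a, Sprr1b and Sprr3 are under it. The authors' deposited table with WT replicates 2 and 3 in their place has Sprr2b at -4.45 (adjusted p = 4.655e-17) and Sprr2f at -5.25 (adjusted p = 8.904e-70), while Sprr3 is at -1.03 (adjusted p = 0.0003547). The 3 tables hold equal counts for the libraries they share.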

How the data were processed

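RNA was measured in 6 tongue libraries made with the Illumina TruSeq kit, 3 per label, per the labels' protocols. The authors deposited 3 tables of raw read counts per gene, 1 with all 6 libraries and 2 with 4 each. Per the file headers these also hold a mean normalised count (a signal), log2 fold changes and their standard errors, a test statistic (a score), a p-value and an adjusted p-value from the authors' comparison. HTSeq, DESeq2, hg19 and mm10 are named in the submitters' processing notes, while the sources used here give no aligner, annotation, read length or strand setting. No column of per-sample values lacked a sample (0 unmapped).

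Counts were fitted with edgeR 4.0.16 (quasi-likelihood, robust) in R 4.3.3, after filterByExpr (minimum count 10, total 15) and TMM scaling, with group as the only term and Benjamini-Hochberg adjustment over all 15903 genes. CPM are TMM-scaled. Standard errors are the absolute log2 fold change over the square root of F, and intervals are at 95%. At 1 CPM a gene had 25.6 to 53.0 counts. Replicates differed beyond sampling noise (chi-square per degree of freedom 48.0 to 178). Sums and ratios were compared by 2-sided exact permutation tests with SciPy 1.17.1. The fit was tested on simulated data. DESeq2 1.42.0, limma 3.58.1 (voom), 2 other scalings, no filter, left-out libraries, the 4-library sets, a replicate block and 2 covariates were the alternatives.

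Named genes were all members and other Sprr rows, check genes, up to 6 genes per list by adjusted p, up to 8 neighbours and the nearest on each side, and 10 genes by likeness. Lor, Elf3, Ehf, Fosl1, Fosl2, Fos, Pou2f3, Il1f9, Areg, Ereg, Epgn, Il22, Il13 and Il4 were named beyond these after their values were seen. The members and lists were chosen with earlier results of these data known. Protein features were not analysed here, and the promoter of Sprr2g was not used here.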

Additional observations from a re-analysis of the deposited data

How the results depend on the processing

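Over 16 alternatives no member changed direction in 160 fits of a member, whose log2 fold changes ran from 0.93 to 6.87, and 66 of these fits kept a call, 78 lost it, 4 gained one and 12, all of Sprr2d, stayed without one. Of the 10 members 9 were called higher with all 6 libraries, 0 to 10 with 1 library left out, 4 with no filter on low counts, 0 in the 4 libraries with WT replicates 1 and 3, and 0 with either the basal or the muscle mean as a covariate. All 10 were called by DESeq2 and by limma-voom and in the 4 libraries with WT replicates 2 and 3. With both other scalings 9 were called. Over all genes the share called higher was 4.81% with all 6 libraries and 4.18% with no filter. It was 12.1% by DESeq2, 6.17% by limma-voom, and 4.79% and 4.67% with the other scalings. In the 4 libraries it was 14.9% with WT replicates 2 and 3 and 0% with WT replicates 1 and 3. Of the neighbours 18 were called higher, 0 to 19 with 1 library left out, 0 in the 4 libraries with WT replicates 1 and 3 and 0 with either covariate. The counts depended on which libraries were left out, and the cause was not tested.

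The log2 ratio of the summed members ran from 2.28 to 2.67 with 1 library left out, that of the Sprr2 sum from 3.53 to 6.16, and those per Krt5 and Krt14 count and per Krt4 and Krt13 count from 1.33 to 1.56 and from 1.72 to 2.26. Collapsed to 1 row in edgeR, the sum of 10 had a log2 fold change of 2.46 (adjusted p = 0.02907) and the Sprr2 sum one of 4.03 (adjusted p = 0.04337), where the permutation test of 3 against 3 cannot pass 0.05. With all Sprr rows added to the sums, an alternative chosen after seeing the data, these ratios were 2.54 and 3.85.

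The labels give both groups the replicate numbers 1 to 3. Deviations of same-numbered libraries correlated at 0.122, -0.157 and 0.193. The last was the highest of any KO library with any WT library. These values differ in sign and do not settle whether the numbers mark pairs. With the replicate block 4 members and 21 neighbours were called higher, and 1705 genes in place of 765. KO replicate 1 correlated best with WT replicate 2 (0.174).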
